A study of Mus musculus with 5 samples.

Results

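The CpG islands described here lie inside the autosomal genes Disp3, Trio, Dact3, Btnl9, Cilp2 and Scarf2, and had less DNA methylation in Setdb1 depleted than in control fibroblasts. They are 6 of 16208 CpG islands found in the reference and 6 of the 8259 autosomal islands with enough calls in every library. The islands were selected on these same values, the lower methylation of the depleted libraries, so the differences between the groups at the islands are given as a description and with no test. The label of gene-body islands was examined against the annotation. All 6 overlap an exon and none overlaps the first exon of the main transcript. The Scarf2 island, however, holds the annotated start of a transcript with a retained intron, and the 5 measured positions of the Trio island are all intronic.

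The libraries came from female mouse embryonic fibroblasts (MEFs) taken from E13.5 embryos of 129/C57 dams and CAST (castaneus) sires. All carried the Xist deletion Xist-deltaA on 1 of the X chromosomes and all were transduced with a hairpin retrovirus and selected with puromycin. The Female control group held 3 libraries with the genotype Setdb1+/+ Xist-deltaA/+ and a nonsilencing hairpin, and the Setdb1 depleted group held 2 libraries with the genotype Setdb1+/gt Xist-deltaA/+ (gt, a gene trap) and the hairpin shSetdb1. The effects of genotype and of hairpin therefore cannot be told apart. Whether libraries of a group came from separate embryos is not given in the labels. The cells are a mixed fibroblast culture, and no cell type markers were examined in these DNA methylation calls.

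CpG islands are stretches rich in the dinucleotide CpG. Those at promoters are mostly kept free of methylation, whereas islands inside transcribed genes are often methylated. Setdb1 is a histone methyltransferase that places methyl groups on lysine 9 of histone H3 (H3K9), a mark of silent chromatin that is found together with DNA methylation at many repeats. The assay was eRRBS, an enhanced form of reduced representation bisulphite sequencing. MspI cuts the DNA at CCGG and bisulphite turns unmethylated cytosines into uracil, so that each read reports the state of every CpG it covers. A call is the state of 1 CpG in 1 read, and % mC is the share of calls that were methylated. A position is 1 cytosine on 1 strand, so a CpG measured on both strands counts once for each strand. A read was given to the maternal domesticus or the paternal castaneus allele by a strain difference, so only CpGs within a read of such a difference were measured.

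Each library held between 9440874 and 10558931 calls per allele. The maternal identity of the domesticus calls was examined at the imprinted gene Zrsr1, whose island had 93.1 to 97.4% mC on the domesticus and 0.785 to 4.65% mC on the castaneus allele over the 5 libraries. The islands described here had 559 to 4222 calls per library, which gave exact 95% binomial intervals between 1.81 and 7.75 percentage points wide. These intervals cover counting error only and take the calls as independent. Calls of 1 read are not independent, so the intervals can be too narrow even for that error.

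The measured part of each island is shown by the MspI fragment that held the most calls, printed from the forward strand of GRCm38 in the 5′ to 3′ direction. The capitals mark the CpGs with more than 20 calls in every library, on either strand and with both alleles summed. The island values below also take in calls at positions outside these fragments. The fragments are chr4:148271610-148271795 in Disp3, chr15:27772784-27772929 in Trio, chr7:16885460-16885550 in Dact3, chr11:49169183-49169303 in Btnl9, chr8:69882393-69882580 in Cilp2 and chr16:17803355-17803449 in Scarf2.
Disp3: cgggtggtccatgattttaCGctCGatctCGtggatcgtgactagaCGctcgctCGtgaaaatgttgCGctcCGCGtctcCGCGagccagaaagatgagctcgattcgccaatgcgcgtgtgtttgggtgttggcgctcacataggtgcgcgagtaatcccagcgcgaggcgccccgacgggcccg
Trio: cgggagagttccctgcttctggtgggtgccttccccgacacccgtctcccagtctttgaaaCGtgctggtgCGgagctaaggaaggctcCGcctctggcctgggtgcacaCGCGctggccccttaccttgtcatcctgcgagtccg
Dact3: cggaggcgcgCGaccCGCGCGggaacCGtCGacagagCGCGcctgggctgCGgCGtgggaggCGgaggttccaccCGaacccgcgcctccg
Btnl9: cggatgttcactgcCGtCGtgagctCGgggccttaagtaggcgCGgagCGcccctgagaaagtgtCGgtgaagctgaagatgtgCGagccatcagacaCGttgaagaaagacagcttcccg
Cilp2: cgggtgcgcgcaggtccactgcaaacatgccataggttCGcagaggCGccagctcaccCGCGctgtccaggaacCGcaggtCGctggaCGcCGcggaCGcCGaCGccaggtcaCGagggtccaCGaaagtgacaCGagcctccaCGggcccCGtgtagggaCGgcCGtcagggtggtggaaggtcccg
Scarf2: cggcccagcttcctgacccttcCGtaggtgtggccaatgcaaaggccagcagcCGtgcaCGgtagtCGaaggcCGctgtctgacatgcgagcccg
The capitals take in 58 of the 96 CpGs of these fragments. The Disp3, Dact3, Btnl9 and Cilp2 fragments are wholly coding, the Scarf2 fragment is 71.6% coding, and the Trio fragment is 13.7% coding with its measured CpGs in the intron.

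Across the 6 islands, with both alleles summed, the mean % mC of the depleted libraries was 2.85 to 16.1 percentage points below that of the controls, with a median of 8.09 points lower. In all 6 the values of the 2 depleted libraries lay below those of all 3 controls, which the selection favoured. Among all 8259 autosomal islands the depleted libraries lay below all controls at 804, or 9.73%, and above all controls at 601. The median difference over all these islands was 0.0165 points lower, with a median level of 0.226% mC. Ordered by the difference, Trio ranked 13th lowest, Disp3 47th, Dact3 73rd, Scarf2 87th, Btnl9 168th and Cilp2 312th.

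**Figure D1:**
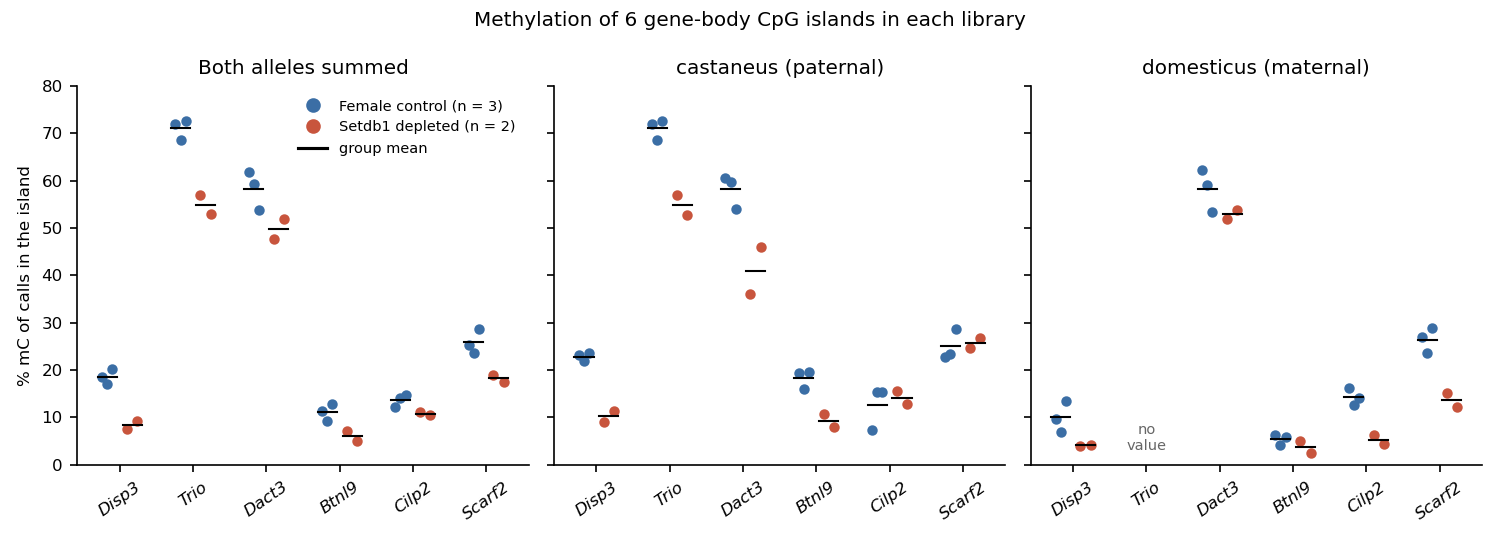
Each point is the % mC of 1 library in 1 island, with both alleles summed (left), on the castaneus allele (middle) and on the domesticus allele (right), and bars are group means. In the left panel the 2 depleted libraries lie below the 3 controls in all 6 islands, whereas Cilp2 and Scarf2 overlap on the castaneus allele and Dact3 and Btnl9 overlap on the domesticus allele.

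Most autosomal islands were hardly methylated, so the islands were also set beside those of the same kind. Of 412 exonic islands more than 1 kb from any annotated start, a class that holds all of these islands but Scarf2, 75 (18.2%) had both depleted libraries below all controls and 29 had them above, with a median difference of 0.299 points lower. Of the 205 islands of this class above 20% mC, 30 (14.6%) were below and 14 (6.83%) above. Of all 472 autosomal islands above 20% mC, at starts or not, which take in Trio, Dact3 and Scarf2, 105 (22.2%) were below and 28 above, with a median difference of 1.28 points lower. A difference of more than 10 points lower was seen at 14 of the 412 islands, among them Trio and Disp3, and a difference of more than 10 points higher at 4. In the quasi-binomial model of methylated and unmethylated calls, 5 of 7788 autosomal islands (0.0642%) passed an adjusted p of 0.05 after depletion, 1 higher and 4 lower, and 240 had an unadjusted p under 0.05. limma on logit values called 0 of 8259, with 460 at an unadjusted p under 0.05. The selection used this contrast, so it gives no test of these islands.

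**Figure D2:**
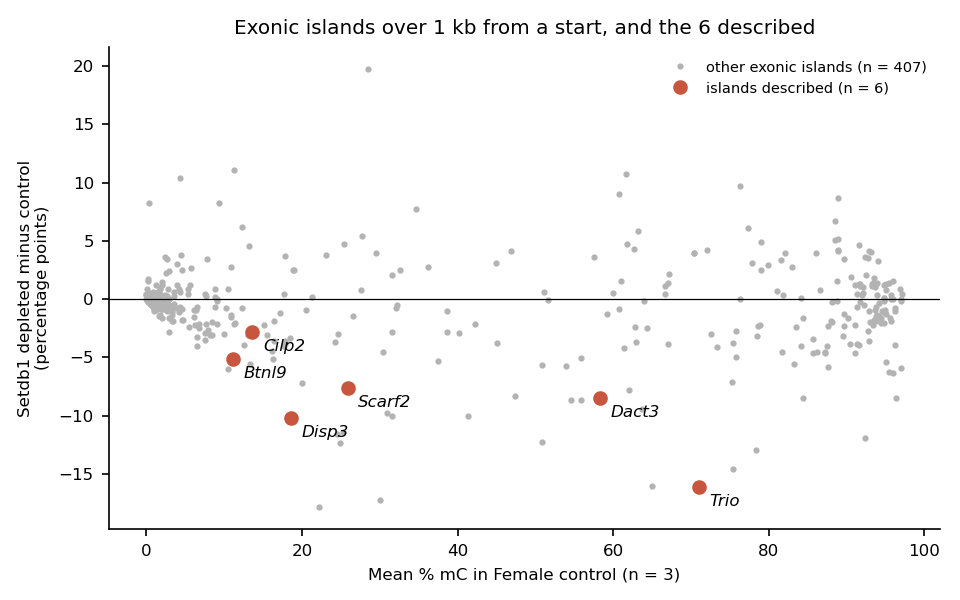
Grey points are the other exonic islands more than 1 kb from an annotated start, placed by the mean % mC of the 3 controls and by the difference of the depleted from the control mean in percentage points. The 6 islands described (red) lie between 2.85 and 16.1 points below 0, and islands of similar level lie on both sides of 0.

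Disp3, Trio and Dact3 encode proteins of signalling pathways. Disp3 is a multipass membrane protein of the Dispatched family, which carries a sterol-sensing domain. Its island (chr4:148271443-148272130, GRCm38) is 688 bases long with 61 CpGs, lies wholly in coding sequence of exon 2 of 21 and is 10212 bases from the nearest annotated start. The controls had 18.4, 17.1 and 20.3% mC, and the depleted libraries had 7.44 and 9.25%. The depleted libraries had less than the lowest control, and the means were 18.6% ± 1.59 (SD, n = 3) and 8.34% ± 1.28 (SD, n = 2). The castaneus allele went from 22.8% ± 0.822 in controls to 10.2% ± 1.66, and the domesticus allele from 9.97% ± 3.27 to 4.09% ± 0.124. The groups did not overlap on either allele.

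Within the Disp3 island 13 positions had more than 20 calls in every library, all of them lower in the depleted mean and 10 of them without overlap. They span bases 91 to 250 of the island. On the castaneus allele the position at base 187 had 35.9% mC in controls and 11.5% in depleted libraries, and that at base 248 had 33.7% and 9.27%. The castaneus difference was smallest at base 197, which had 11.7% mC in controls and was 0.488 points lower. Both MspI fragments compared, which held most but not all calls of the island, were lower without overlap, by 11.3 and 11.1 points. The reference holds 1 further sequence like this island, at 98.4% identity, which its header names as an alternate form of chromosome 4 in the strain NOD/MrkTac and not as another gene.

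Trio is a guanine nucleotide exchange factor for small GTPases such as Rac that guides axons and cell migration. Its island (chr15:27772819-27773074) is 256 bases long with 19 CpGs and spans part of exon 36 of 57 and the intron beside it, 15564 bases from the nearest start. The controls had 71.9, 68.6 and 72.6% mC and the depleted libraries 56.9 and 52.9%. With both alleles summed, this was the largest difference of the 6, from 71.0% ± 2.18 (SD, n = 3) to 54.9% ± 2.85 (SD, n = 2). On the castaneus allele alone the difference was larger at Dact3, 17.1 points lower against 16.1 at Trio. All of the Trio calls but 3 were on the castaneus allele, because 4 libraries had no domesticus calls and depleted library 2 had 3. No domesticus value can be given.

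The Trio values rest on 5 positions between bases 28 and 79 of the island, in 559 to 830 calls per library. All 5 were lower without overlap, by 11.5 to 21.9 points. Their order was kept: the position at base 28 was the least methylated in both groups, 35.8% in controls and 24.3% after depletion, and that at base 56 was the most methylated, 89.4% and 76.7%.

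Dact3 encodes a binding partner of Dishevelled that restrains Wnt signalling. Its island (chr7:16885082-16886384) is 1303 bases long with 204 CpGs and lies in coding sequence of the last of 4 exons, 4683 bases from the nearest start. The controls had 61.9, 59.3 and 53.7% mC and the depleted libraries 47.7 and 51.8%. Control 3 was 1.90 points above the higher depleted library, so the groups came close. The means were 58.3% ± 4.15 (SD, n = 3) and 49.8% ± 2.92 (SD, n = 2). Coverage differed here: control 3 drew 52.0% of its calls from the castaneus allele and had 29 domesticus positions, while the other 4 libraries drew 25.1 to 26.7% from it and had 57 to 70 domesticus positions. The part this plays in the island value was not tested. By allele, castaneus went from 58.2% ± 3.53 to 41.0% ± 7.10, 17.1 points lower without overlap, and domesticus from 58.3% ± 4.54 to 52.9% ± 1.27, where the groups overlapped.

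At Dact3 positions measured in every library the separation was wider. Over 34 such positions the mean was 55.5% ± 2.58 in controls and 42.9% ± 1.78 in depleted libraries, with 31 lower and 18 of these without overlap. In the fragment printed above, with 1885 to 2287 calls per library, the controls had 51.6, 47.5 and 48.1% mC and the depleted libraries 35.2 and 35.4%. Its castaneus calls went from 53.2% ± 4.54 to 31.3% ± 4.46 and its domesticus calls from 47.6% ± 2.18 to 37.1% ± 1.69, both without overlap. The largest difference of any Dact3 position was at base 441 on the castaneus allele, 83.4% in controls and 42.0% in depleted libraries. On the same allele base 197 was higher after depletion, with 74.1% in controls and 92.6% in depleted libraries, and the groups overlapped. A second fragment, 85 bases long and nearer the start of the island, was 9.86 points lower with both alleles summed but overlapped on each allele taken alone. Its castaneus values of 51.6 and 68.8% set the depleted libraries apart from each other.

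Btnl9, Cilp2 and Scarf2 encode proteins of the cell surface and the matrix. Btnl9 is a butyrophilin-like membrane protein of the immunoglobulin superfamily. Its island (chr11:49169119-49169636) is 518 bases long with 51 CpGs and lies in coding sequence of the last of 10 exons, 1039 bases from the nearest start. The controls had 11.4, 9.22 and 12.8% mC and the depleted libraries 7.0 and 5.01%. The means were 11.1% ± 1.81 (SD, n = 3) and 6.0% ± 1.41 (SD, n = 2). The castaneus allele went from 18.2% ± 2.01 to 9.25% ± 1.88 without overlap. The domesticus allele, at 5.46% ± 1.07 and 3.74% ± 1.79, overlapped.

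The Btnl9 groups were free of overlap in 1 of the 3 fragments compared. The fragment printed above went from 15.7% ± 2.41 to 7.44% ± 1.11, and did not overlap on either allele. The next fragment (chr11:49169334-49169430), 30 bases further on, had 3.26% ± 0.245 in controls and 3.89% ± 2.68 in depleted libraries, which overlapped. Its calls were nearly all on the domesticus allele. Of 31 positions over the island, 10 were lower without overlap and 1 was higher. With each of these positions weighted equally, the mean fell by 3.02 points.

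Cilp2 is a cartilage intermediate layer protein of the extracellular matrix. Its island (chr8:69880910-69883346) is the longest of the 6, with 2437 bases and 293 CpGs, spans exons 7 and 8 of 8 and is 4341 bases from the nearest start. The controls had 12.1, 14.1 and 14.7% mC and the depleted libraries 11.1 and 10.5%. With both alleles summed, this was the smallest difference of the 6, from 13.6% ± 1.39 (SD, n = 3) to 10.8% ± 0.446 (SD, n = 2). Control 1 was 0.976 points above the higher depleted library. The domesticus allele had 16.3, 12.6 and 14.1% in controls and 6.16 and 4.33% in depleted libraries, 9.07 points lower without overlap. The castaneus allele had 7.23, 15.3 and 15.4% in controls and 15.5 and 12.8% in depleted libraries, 1.52 points higher with overlap. Control 1 held the lowest castaneus value of the 5 libraries, and controls 2 and 3 lay between the depleted values.

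The Cilp2 calls covered different places in different libraries. The castaneus share of calls ran from 46.3 to 72.3%, highest in depleted library 2, and the number of positions with a call from 30 to 49. Of 30 positions measured in every library, 17 were lower, 3 of these without overlap, and 2 were higher without overlap. Weighted equally, their mean fell by 1.45 points. Neither of the fragments compared was apart between groups with both alleles summed. On the domesticus allele both were lower without overlap, by 9.16 and 9.07 points, the latter with only 23 calls in depleted library 2. On the castaneus allele this latter fragment (chr8:69882891-69882977) went the other way without overlap. It had 7.36, 10.1 and 9.50% mC in controls and 11.2 and 16.9% in depleted libraries there. The castaneus groups of the other fragment overlapped.

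Scarf2 is a scavenger receptor with epidermal growth factor-like repeats. Its island (chr16:17802834-17803612) is 779 bases long with 84 CpGs and spans exons 4 and 5 of 11. The controls had 25.3, 23.5 and 28.8% mC and the depleted libraries 18.9 and 17.5%. The means were 25.9% ± 2.67 (SD, n = 3) and 18.2% ± 0.976 (SD, n = 2). The domesticus allele had 26.9, 23.5 and 28.8% in controls and 15.2 and 12.1% in depleted libraries, and the castaneus allele 22.8, 23.4 and 28.7% and then 24.7 and 26.8%. The lower values were thus on the domesticus allele, 12.8 points down without overlap, while the castaneus groups overlapped. The same island is found at 100% identity in a sequence that its header names as an alternate form of chromosome 16 in the strain 129S1/SvImJ.

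All 10 Scarf2 positions, at bases 544 to 596 of the island, were lower with both alleles summed, 3 of them without overlap. On the domesticus allele all 10 were lower and 6 did not overlap, by up to 28.8 points at base 575 (35.7% in controls, 6.91% after depletion). On the castaneus allele 1 of 5 positions was lower, and the median difference was 3.93 points higher. At the 5 positions that passed 20 calls on each allele in every library, the castaneus level was below the domesticus level in each control, by 5.31 to 13.3 points. In the depleted libraries it was above, by 6.87 and 15 points.

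**Figure D3:**
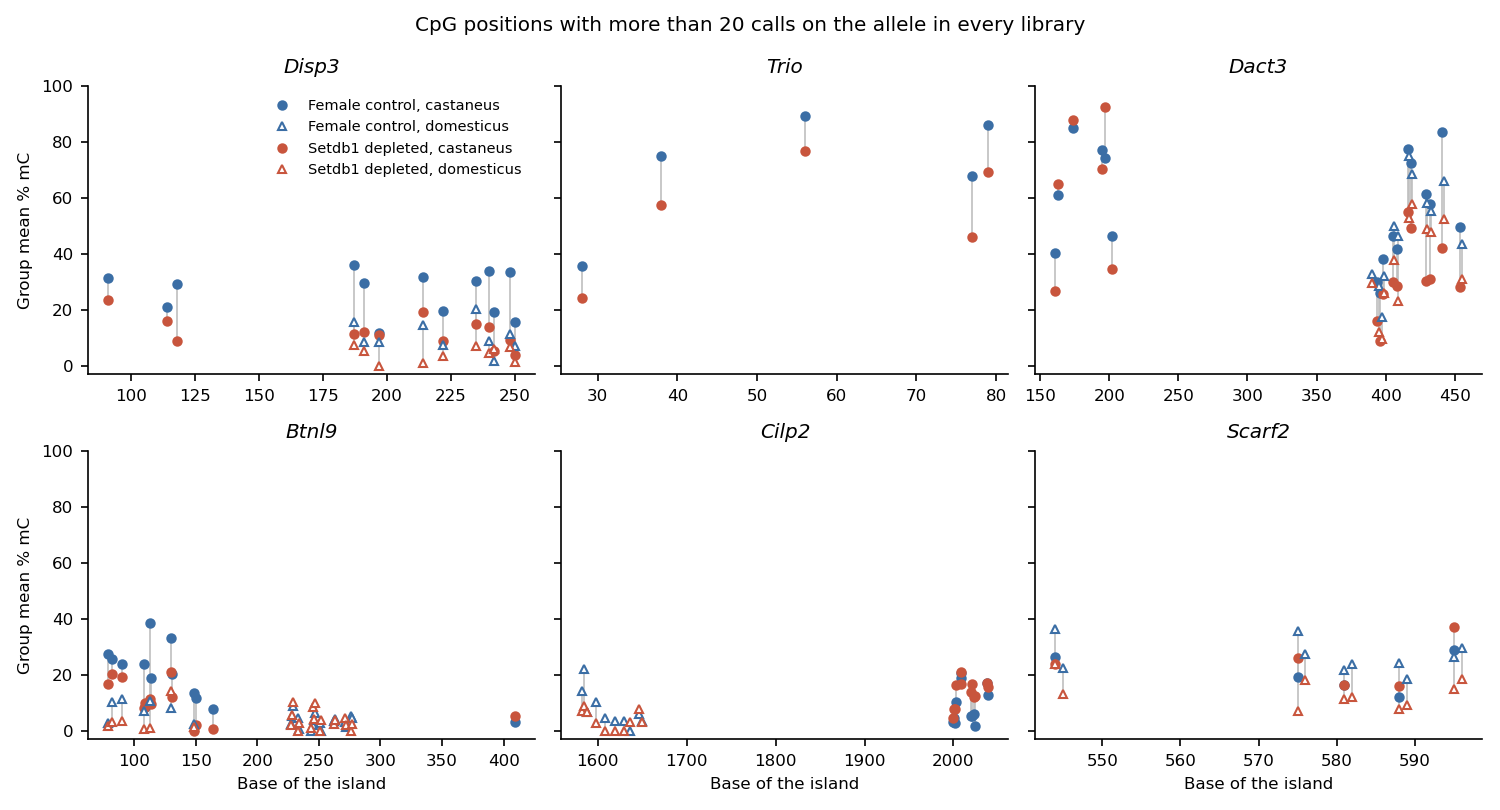
Each CpG position with more than 20 calls on an allele in every library is placed by its base within the island (x axis) and the group mean % mC (y axis), with castaneus as filled circles and domesticus as open triangles, and a grey line joins the control and depleted means. In Trio all 5 positions are lower after depletion, and in Disp3 all 13 castaneus positions are, by 0.488 to 24.4 points. On the castaneus allele 2 of 12 positions are lower in Cilp2 and 1 of 5 in Scarf2. The median differences there are 4.03 and 3.93 points higher.

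Counted over the 6 islands, with the strands of a CpG counted apart, 123 positions had more than 20 calls in every library. Of these 96 were lower in the depleted mean and 49 (39.8%) were lower without overlap, against 3 higher without overlap. Over all 119486 autosomal island positions 1.95% were lower without overlap, and over the 3706 of these above 20% mC it was 14.8%. Positions of 1 island share reads and are not independent, and the islands were selected on their calls. Read by allele, the depleted libraries lay below all controls at 4 of 6 islands on the castaneus and 3 of 5 on the domesticus allele. The same was seen at 7.56% of 7196 autosomal islands on the castaneus and 7.38% of 6893 on the domesticus allele.

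The calls were also sorted by the read that held them, as a description, since a fall in % mC can itself raise the share of reads with no methylated call. Reads with at least 3 calls in the island were sorted into those with all, some or no calls methylated, over 111 to 445 such reads per island and library. The share with no methylated call was higher in both depleted libraries than in all controls at 5 of 6 islands. The reads hold the same calls on which the islands were selected, so nothing is read from this count. Among 7389 autosomal islands with more than 20 such reads in every library the same was seen at 680, or 9.2%, and among 340 exonic islands away from starts at 49 (14.4%). In Disp3 it was 50, 54.7 and 40.9% of reads in controls and 68.5 and 63.8% in depleted libraries. In Scarf2 it was 30.4, 35.6 and 27.8% and then 47.7 and 49.4%, and in Btnl9 it went from 65.0% ± 3.08 (SD, n = 3) to 75.7% ± 5.09 (SD, n = 2). Fully unmethylated reads were rare in Dact3, at 1.4% ± 1.38 in controls and 9.19% ± 0.926 in depleted libraries.

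In Trio the fully methylated reads were fewer in the depleted libraries, 24.3, 17.4 and 22.6% in controls and 7.69 and 10.1% in depleted libraries, while reads with no methylated call went from 0.901% ± 1.56 to 6.92% ± 5.43. Most Trio reads were mixed in both groups. Cilp2 was the island of the 6 whose share with no methylated call overlapped with both alleles summed, at 51.1% ± 3.25 and 55.1% ± 4.33. Its domesticus reads had 45.7, 49.7 and 48.6% in controls and 71.6 and 73.1% in depleted libraries, and its castaneus reads had 53.8% ± 7.53 and 46.7% ± 1.31. In Scarf2 the domesticus reads likewise went from 31.5% ± 8.03 to 58.5% ± 4.72, and the castaneus reads had 31.0% ± 14.1 and 32.1% ± 5.60.

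**Figure D4:**
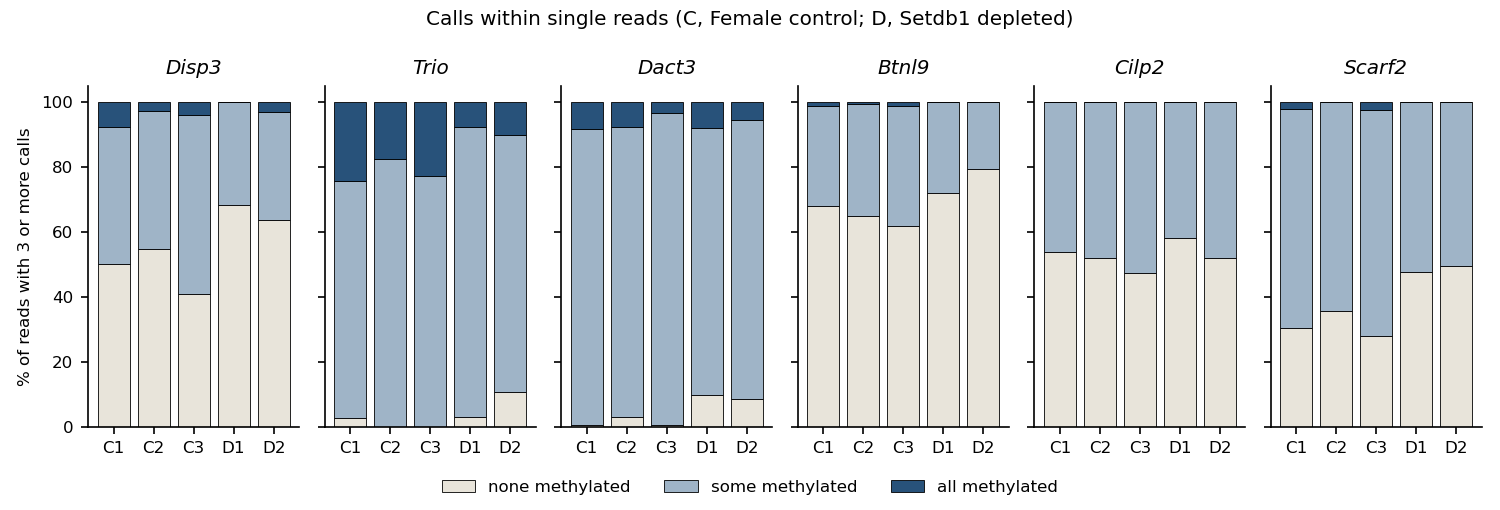
Bars give the percentage of reads with 3 or more calls in which none, some or all calls were methylated, for the 3 Female control (C1 to C3) and the 2 Setdb1 depleted (D1, D2) libraries, both alleles summed. Reads with no methylated call make up 63.8 to 68.5% of Disp3 reads after depletion and 40.9 to 54.7% in controls, and fully methylated Trio reads 7.69 to 10.1% and 17.4 to 24.3%.

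The level on the 2 alleles of the same library is a comparison that the selection did not use, although selecting islands for a fall can favour an allele with more methylation to lose. In the quasi-binomial model with the library as block, the castaneus allele of Disp3 was higher than the domesticus allele over the 5 libraries, with means of 17.8 and 7.61% mC and an adjusted p of 4.1e-04 over all islands tested. Btnl9 differed the same way, with means of 14.6 and 4.77% and an adjusted p of 1.1e-05. limma did not call either, with adjusted p of 0.124 for Disp3 and 0.0812 for Btnl9, where it called 137 of 5934 islands in all. Over the 4878 autosomal islands tested the model called 147 (3.01%), of which 73 were higher on the castaneus and 74 higher on the domesticus allele. The quasi-binomial model called no difference at Dact3 (56.1% domesticus, 51.3% castaneus, adjusted p = 0.491), Cilp2 (10.7 and 13.3%, adjusted p = 1.0) or Scarf2 (21.3 and 25.3%, adjusted p = 0.889). Trio could not be tested.

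The alleles were also set side by side at the same positions, since reads of the 2 alleles need not cover the same CpGs. Only Disp3, Btnl9 and Scarf2 had such positions, with over 20 calls per allele and library. At 10 positions of Disp3 the castaneus allele was higher in 5 of 5 libraries, by 12.8, 19.1 and 15.5 points in controls and 9.13 and 4.27 points in depleted libraries. At 7 positions of Btnl9 it was higher in 5 of 5 libraries, by 9.74 to 23.2 points. The two-sided exact sign-flip permutation test gave p = 0.0625 for each, the smallest p that 5 libraries allow, and 0.0938 after adjustment over 3 islands. For Scarf2 the mean difference was 0.655 points in favour of the domesticus allele and p = 1.0 by the same exact test. With positions of more than 10 calls the direction turned, to 7.64 points in favour of the castaneus allele.

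The rest of each gene was covered unevenly. Outside CpG islands and more than 1 kb from any start, Trio had 34 and Disp3 had 13 positions with more than 20 calls in every library, and the other 4 genes had too few for a test. In the Trio gene body the depleted libraries had 80.6 and 83.4% mC and the controls 78.2, 80.5 and 80.5%, a mean difference of 2.31 points higher that did not pass the test (quasi-binomial model, adjusted p = 0.881). The Trio difference was 0.930 points without depleted library 2, 3.68 without depleted library 1 and 1.53 without control library 1. In the Disp3 gene body the depleted libraries had 59.7 and 60.3% and the controls 69.4, 62.1 and 68.9%, a mean difference of 6.83 points lower (quasi-binomial model, adjusted p = 0.777, unadjusted p = 0.0250). With its 13 positions weighted equally, the Disp3 gene body fell by 3.11 points. The model called 1 of 4141 gene bodies (0.0241%), higher after depletion, with 258 at an unadjusted p under 0.05, and limma called 0 of 4144, with 248 at an unadjusted p under 0.05. No change was detected in the gene body of Trio or Disp3 at this depth and number of libraries.

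**Figure D5:**
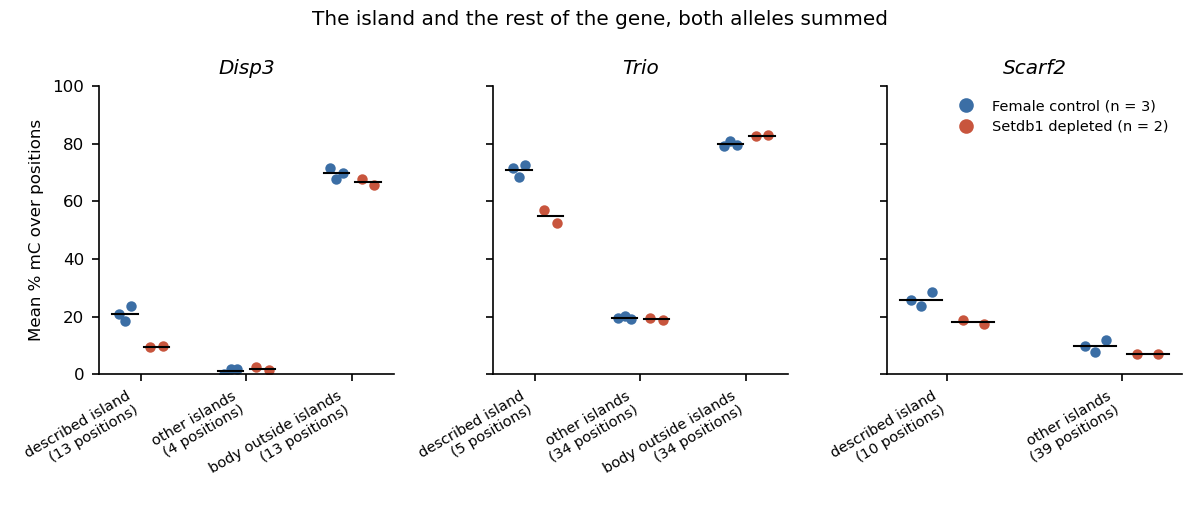
Points are the mean % mC over measured positions of 1 library, for the island described, the other islands of the gene and the gene body outside islands (more than 1 kb from a start), and bars are group means. In Trio the island goes from 70.8 to 54.7%, the other islands from 19.6 to 19.2% and the gene body from 79.9 to 82.8%. The other Trio islands average an island at a start, with 0.116% in controls, and a gene-body island with 94.1%. In Disp3 the gene body also goes down, from 69.7 to 66.6%, while the other islands go up from 1.2 to 1.91%. In Scarf2 the other islands go down from 9.69 to 7.09%.

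The member genes held 6 other islands with enough calls. The islands at the annotated starts of Disp3, Trio and Scarf2, and a Cilp2 island 45 bases from a start, all had group means under 2% mC. A second Trio island in the gene body (chr15:27773851-27774075), 776 bases from the end of the one described, had 94.1% ± 1.10 in controls and 92.7% ± 0.563 in depleted libraries. A second Scarf2 island (chr16:17804236-17804603), 206 bases from an annotated start, had 48.4, 33.9 and 51.0% in controls and 30.6 and 30.5% in depleted libraries. The 2 depleted values lay below all controls, and the difference of 13.8 points did not pass the test (quasi-binomial model, adjusted p = 0.999, unadjusted p = 0.0151). It was lower on both alleles, by 16.7 points on the domesticus and 19.0 points on the castaneus allele, the latter from as few as 47 calls. The domesticus groups did not overlap, but on the castaneus allele control 2 had 39.3%, below the 41.7 and 40.4% of the depleted libraries.

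Related genes were examined as a list of 11 paralogues: Disp1, Disp2 and Ptch1 for Disp3, Kalrn for Trio, Dact1 and Dact2 for Dact3, Btnl2, Btn1a1 and Btn2a2 for Btnl9, Cilp for Cilp2, and Scarf1 for Scarf2. Of these 5 had an island with enough calls, 6 islands in all. Of the 6 islands of paralogues and the 6 other islands of the member genes, 0 passed the test in either direction with the quasi-binomial model or limma, and 7 of the 12 were lower in the depleted mean, beside 4382 of all 8259 autosomal islands. An unadjusted p under 0.05 was given by the model to 1 of the 12, the second Scarf2 island, and by limma to 0 of them, beside 240 of all 7788 islands in the model and 460 of 8259 in limma. A gene-body island of Disp1 (13857 bases from a start) had 97.0% ± 2.49 in controls and 91.1% ± 11.3 in depleted libraries, and one of Scarf1 (1798 bases from a start) had 89.7% ± 1.01 and 88.4% ± 0.892. The islands of Ptch1, Kalrn and Dact1, and a second one of Disp1, were at starts and under 2% mC in both groups.

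Among 406 exonic islands away from starts and outside the 6 genes, the one whose 5 library values lay closest to each island was looked for, by the Euclidean distance in percentage points. The depleted values entered this distance, so the match to an island that fell favours islands that fell too. Nothing is read from their differences. The closest to Cilp2 was at Lactbl1 (distance 2.72), with 13.0, 13.1 and 13.0% mC in controls and 9.62 and 10.2% in depleted libraries. For Btnl9 it was at Scrt2 (distance 4.89, 3.93 points lower after depletion), for Disp3 at Npas3 (7.25, 4.49 points lower) and for Dact3 at Zbtb45 (9.07, 8.67 points lower). For Trio it was at Rem1 (12.9), which had 78.8, 72.5 and 75.1% in controls and 59.2 and 62.5% in depleted libraries. The closest to Scarf2, at Espnl (9.76), had no lower mean after depletion, with a difference of 0.202 points higher.

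In sequence the islands lay on both sides of the typical island. Their GC share ran from 61.0 to 75.8% and their observed to expected CpG ratio from 0.724 to 1.09, where the medians of all 8259 islands were 66.7% and 0.928. Their length ran from 256 to 2437 bases around the median of 669. Most islands tested, 6823 of 8259, held an annotated start. The number of MspI sites (CCGG) in an island ran from 1 in Trio to 19 in Dact3. The measured positions spanned 6.80% of the Scarf2 island, 20.3% of Trio and 63.9% of Btnl9, so most bases of the islands other than Btnl9 were not seen.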

How the data were processed

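DNA methylation was measured by eRRBS in 3 Female control and 2 Setdb1 depleted libraries, grouped by their labels. The authors trimmed reads with Trim Galore (base calling by CASAVA 1.4 per the submitters' notes), aligned them with Bismark to N-masked mm10, split them by parental genome with C/T differences left out, and left out bases at read ends. The deposited files hold single CpG calls of Bismark methylation extractor 0.13.0, methylated or unmethylated, with no normalisation. Removal of PCR duplicates is not given in the sources used here. Reads marked by a Y in the filter field of their name, 5.34 to 5.66% of calls, were kept. This is not a mark of duplicates.

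Calls were summed per position, allele and library. CpG islands were found in GRCm38 by a running score (CpG 17, other bases -1), with a length of at least 200 bases, a GC share of 0.5 and an observed to expected ratio of 0.6, and annotated with GENCODE M21. Islands needed calls at 3 or more positions and more than 20 calls summed over the island, in every library. Gene bodies needed at least 3 positions with more than 20 calls in every library. The mean and SD of a group are over libraries. Methylated and unmethylated calls were tested by a quasi-binomial logistic model with dispersion moderated by limma 3.58.1 in R 4.3.3, never under 1 nor under its typical value, and Benjamini-Hochberg adjustment over all features tested. Allele differences took the library as block. limma on log2((methylated + 0.5)/(unmethylated + 0.5)) was the alternative. A first form of the model, which counted every residual degree of freedom, had been applied to the libraries and was replaced after it made false calls on simulated data. Between 3 and 2 libraries an exact permutation test cannot go below p = 0.1. Copies were looked for with minimap2 2.31 (at least 100 bases at 90% identity). Tables were made with Python 3.11.15, pandas 2.3.3 and scipy 1.17.1, and plots with matplotlib 3.10.9.

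The islands, the paralogue list and the tests were chosen with earlier results of these data known. Genes named beside the 6 were the listed paralogues and, for each island, the nearest exonic island more than 1 kb from a start, and the imprinted gene Zrsr1 was used to check the allele files. 1 further gene, fixed in the list beside the 11 paralogues given, is not reported here. For every pair of libraries the mean chi-square over islands, 4.18 to 6.93, was above that of independent calls. Calls of 1 read are not independent, so these values cannot show that libraries differed by more than sampling noise. Pairs of the same group ran from 4.18 to 6.35 and pairs of a control and a depleted library from 5.29 to 6.93, so the ranges overlapped. Whether libraries came from separate embryos is not given, so p-values measure the spread between libraries, which may be technical. The call minimum, the allele, the island definition, the read minimum, the model and each library were varied.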

Additional observations from a re-analysis of the deposited data

How the results depend on the processing

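The median difference of the 6 islands, 8.09 points lower after depletion, was -10.8 points with castaneus calls alone, -5.88 with domesticus calls alone and -6.01 with the alleles weighted equally, the last pair over the 5 islands measured on both alleles. Leaving out each library gave -8.77 to -7.33. With castaneus calls alone the difference turned to 1.52 at Cilp2 and 0.754 at Scarf2. Both depleted libraries lay below all controls at 509 of 6893 islands (7.38%) on the domesticus and 544 of 7196 (7.56%) on the castaneus allele. With both alleles summed it was 804 of 8259 (9.73%). The 5 autosomal islands called after depletion became 0 with limma and 60 with the replicate block, and 0 to 23 without each library in turn, with 0 without depleted library 1, 2 without depleted library 2, 23 without control library 2 and 19 without control library 3. The 1 gene body called became 0 with limma, 18 with the replicate block and 0 to 1 without each library in turn, 1 without control library 2 and 0 without any other. The deviations of libraries with the same replicate number correlated at -0.0951 and 0.0174 over 838 islands. With only 2 depleted libraries, their deviations mirror each other. These correlations therefore cannot decide whether libraries of the same number were prepared together. With the block the median of the 6 islands was -7.81, the same as without control library 3. The 147 islands called between alleles were 61 in the controls alone and 67 at shared positions. The allele calls of Disp3 (10.2 points) and Btnl9 (9.87 points) were lost with limma. The uncalled allele difference, castaneus minus domesticus, changed sign at Cilp2 in the controls alone (-1.66 points) and at Scarf2 in the controls alone (-1.40) and at shared positions (-0.611). The mean Scarf2 difference over shared positions used in the exact test turned from -0.655 to 7.64 with more than 10 calls per position. At Dact3 the uncalled allele difference of -4.82 points was -0.106 in the controls alone and -2.02 without depleted library 1. Without 1 library the allele difference of Cilp2, 2.58 points, was 5.48 (control 1), 0.882 (depleted 1) or 1.1 (depleted 2), and that of Scarf2, 4.01 points, was 6.05 (control 1), 2.63 (depleted 1) or 1.33 (depleted 2). The uncalled Disp1 gene-body island ran from -13.9 to 2.13 points without each library, the latter without depleted library 1. The cause of these shifts was not tested.

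The flanks, 1 and 2 kb to each side with other islands left out, had fewer than the 3 positions set as the minimum at every island and are not compared. The depth limits the Trio island most, with 559 calls in its shallowest library, and the number of libraries limits each comparison of groups.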
